A study of Mus musculus with 16 samples.

Results

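The genes described here carry the names of proteins of the cytosolic ribosome. They were followed through 5 populations of mouse hematopoietic stem cells (HSCs) sorted by their surface level of MAC-1. Members were taken by name alone, as every gene whose symbol is Rpl or Rps followed by a number and at most 1 of the letters a, l or x, together with Rplp0, Rplp1, Rplp2 and Rpsa. This gave 81 members among the 46078 genes of the count table, 49 named for the large and 32 for the small ribosomal subunit. The latter include Rps4l, which is annotated as a transcribed processed pseudogene. After a filter on low counts 78 of the 81 members were among the 13661 genes tested, and 77 had a mean of at least 1000 counts per sample. MAC-1 is an integrin of the chains CD11b and CD18 that is best known from myeloid cells. All 16 samples came from wild-type (WT) mice of the B6.SJL strain labelled as untreated, and the cells of every sample were cKit-enriched bone marrow cells sorted as live CD48- CD150+ LSK cells (lineage-negative, Sca1+ and cKit+). Steady-state (SS) HSCs were sorted as MAC-1- (n = 3) or MAC-1low (n = 3), and HSCs recovered 4 weeks after transplantation of LSK cells into lethally irradiated recipients were sorted as MAC-1- (n = 3), MAC-1low (n = 4) or MAC-1+ (n = 3). The labels carry the transplantation text on the SS samples as well, so that the titles alone separate SS from 4 week samples, and no age is given in them. They do not say whether samples of a population came from separate mice, so p-values measure only the spread between these samples, which may be technical.

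A cytosolic ribosome is built from a large and a small subunit, each a scaffold of ribosomal RNA covered by ribosomal proteins that are nearly all present in a single copy. The messenger RNAs of these proteins belong to the most abundant of a cell, and most begin with a run of pyrimidines, the 5′ terminal oligopyrimidine (TOP) motif, through which their translation follows signalling by mTORC1. HSCs are known for a low rate of protein synthesis, and loss of single ribosomal proteins, as of RPS19 in Diamond-Blackfan anemia or of RPS14 in the 5q- syndrome, first affects blood formation. A few members have a second, closely related gene, and where both genes make a protein, the proteins of such a pair can replace each other in the ribosome.

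The libraries held 13781278 to 28580658 counts on 14533 to 17576 detected genes, and 3.96% to 9.62% of the counts fell on genes of the mitochondrial genome. HSC markers, all 10 of 10 of which passed the filter, summed to 2016 to 2759 CPM (counts scaled to a common library size by TMM factors) in the SS and the 4 week MAC-1low samples, to 1068 to 1257 in 4 week MAC-1- samples and to 3038 to 4292 in 4 week MAC-1+ samples. Megakaryocyte and erythroid markers (10 of 10 tested) ran the other way, with 4259 to 6646 CPM in 4 week MAC-1- samples and 154 to 310 CPM in 4 week MAC-1+ samples, against 366 to 1080 CPM in all others. Neutrophil markers (6 of 7 tested) lay at 23.1 to 168 CPM outside the 4 week MAC-1+ samples, which ranged from 164 to 7255 CPM. Of the monocyte, B cell and NK or T cell markers 1 of 5, 1 of 5 and 2 of 5 passed the filter, the first 2 lists summing to at most 57.7 and 19.4 CPM and the last to 164 to 642 CPM outside the 4 week MAC-1+ samples and to 16 to 176 CPM in them. Since these marker sums move with the populations compared, their part in every difference given here was not tested, and in bulk samples fewer cells of a type and less RNA per cell cannot be told apart.

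To show where the TOP motif lies in genes on which the results turn, 30 bases around the annotated start are given from the RefSeq promoters of the mouse build GRCm38.p6, 15 on each side, 5′ to 3′ on the coding strand, with the longest pyrimidine run in capitals. The first pair are the paralogs Rps27 (chr3:90213634-90213663, minus strand) and Rps27l (chr9:66946071-66946100, plus strand), followed by Rpl38 (chr11:114668565-114668594, plus), Rpl14 (chr9:120571502-120571531, plus), Rps15 (chr10:80292416-80292445, plus), Rps16 (chr7:28350674-28350703, plus) and Rps6 (chr4:86857353-86857382, minus).
Rps27: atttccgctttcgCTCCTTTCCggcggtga
Rps27l: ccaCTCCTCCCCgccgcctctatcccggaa
Rpl38: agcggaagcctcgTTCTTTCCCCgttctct
Rpl14: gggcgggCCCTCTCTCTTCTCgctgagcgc
Rps15: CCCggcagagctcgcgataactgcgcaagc
Rps16: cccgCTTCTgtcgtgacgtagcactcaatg
Rps6: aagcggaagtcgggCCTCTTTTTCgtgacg
The run covered the annotated start in Rps27, Rpl38, Rpl14 and Rps6, with lengths of 9, 10, 14 and 10 bases. In this window of Rps27l a run of 9 bases ended before the start, and in Rps15 and Rps16 the longest runs measured 3 and 5 bases. Annotated starts can lie some bases from the start a cell uses, so a missing run says only that it is not in these windows.

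Promoters of 60 of the 81 members were matched by symbol, with 72 entries of 300 bases each (250 before and 50 after the start). A pyrimidine run of at least 8 bases covered the start in 17 of the 72 (23.6%) against 3.86% of all 32851 promoters, and lay within 20 bases of it in 30 (41.7%) against 16.1%. The letters CGGAAG, the core bound by ETS factors such as GABP, were present on either strand in 44 (61.1%) against 16.9% of all promoters. GGGCGG, the box bound by SP1, was present in 42 (58.3%) against 35.7%, and AAGATGG, the core of the YY1 motif, in 11 (15.3%) against 6.34%. The TATA box TATAAA was found in 6 (8.33%) against 13.6%. These shares describe the letters of the promoters, were searched on both strands over all 300 bases without removing overlaps, and were read for no factor.

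Between 5.995% and 8.81% of all counts of a sample fell on the 81 members. The share was 7.90% ± 0.185 (SD, n = 3) in SS MAC-1- HSCs, with samples at 7.77%, 7.83% and 8.11%, and 8.22% ± 0.561 (n = 3) in SS MAC-1low HSCs, with samples at 8.81%, 8.15% and 7.69%. After transplantation it was 7.27% ± 1.05 (n = 3) in MAC-1- HSCs (6.40%, 8.44% and 6.98%), 6.46% ± 0.597 (n = 4) in MAC-1low HSCs (6.42%, 7.31%, 6.10% and 5.995%) and 6.93% ± 1.11 (n = 3) in MAC-1+ HSCs (6.03%, 8.17% and 6.57%). The 6 SS samples lay within a narrow band, and every 4 week MAC-1low sample lay below all of them. The other 4 week populations overlapped with SS through a single library each, 4 week MAC-1- replicate 2 and 4 week MAC-1+ replicate 2, which held the highest shares of their populations.

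**Figure D1:**
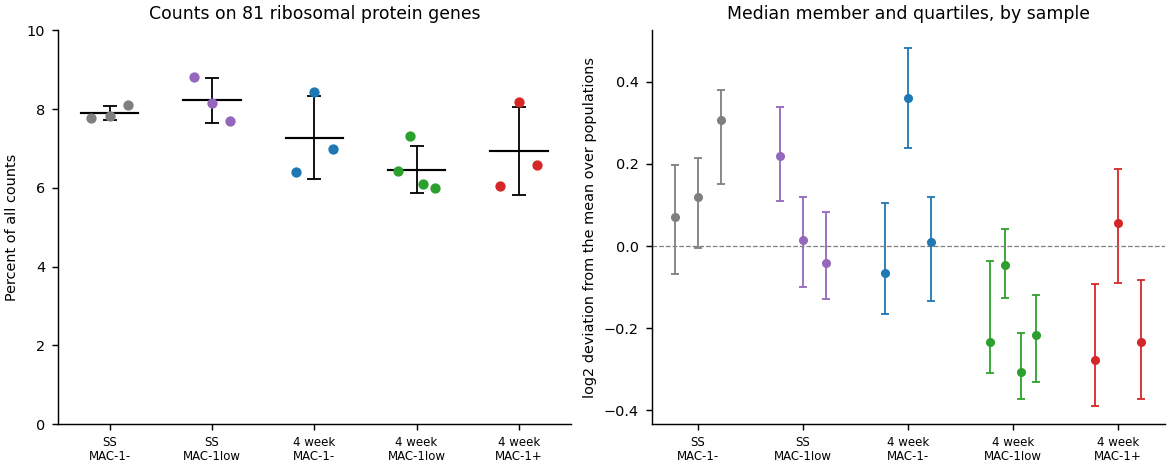
Left, percent of all counts on the 81 cytosolic ribosomal protein genes in each of the 16 samples (dots) with mean and SD per population. Right, the median over the abundant members of their log2 difference from the mean of their own population means, per sample, with quartiles as bars. The 4 week MAC-1low mean is lowest, but its samples, at 5.995% to 7.31%, overlap with those of the other 4 week populations. By label, replicate 2 is highest in each 4 week population.

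On the scale of TMM-scaled CPM, the median abundant member stood in all 3 SS MAC-1- samples above the mean of its own population means, by 0.07, 0.12 and 0.31 (log2). In SS MAC-1low samples the median deviation was 0.22, 0.01 and -0.04. The 4 week MAC-1- samples stood at -0.07, 0.36 and 0.01. It lay below 0 in all 4 of the 4 week MAC-1low samples, at -0.23, -0.04, -0.31 and -0.22, while 4 week MAC-1+ samples stood at -0.28, 0.06 and -0.23. Thus the samples of a population differed from each other about as much as the populations did, with 4 week MAC-1low HSCs on the low side. Of the 77 abundant members 31 had their highest mean in SS MAC-1-, 26 in 4 week MAC-1-, 15 in SS MAC-1low, 5 in 4 week MAC-1+ and 0 in 4 week MAC-1low HSCs. The lowest mean fell in 4 week MAC-1low for 44 and in 4 week MAC-1+ for 27 of them.

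Levels per length, as CPM per kilobase of the principal transcript, spread widely between members. The highest were Rps14, a protein of the small subunit platform, at 5964 CPM per kb (4371 to 7947 over samples), Rps27 at 4858 (3300 to 7336) and Rps19, which is needed to process the small subunit's RNA, at 4084 (2924 to 5563). The lowest of the genes tested were Rps15a at 192 CPM per kb (147 to 289), Rpl24 at 90.9 (66.6 to 136) and Rps4l at 10.4 (0.0668 to 24.7). The value of Rps15a rests on a principal transcript of 5179 bases, the longest of the members (median 878), and its level before division by length was 759.8 to 1494 CPM. From Rps14 to Rpl24 the level per length fell 65.6-fold, although a ribosome holds both proteins once, and 51 of the 77 abundant members lay within 2-fold of their median of 855 CPM per kb. The median was 1083 for the small and 768 for the large subunit. The order of the members was almost the same in each population (Spearman's rho 0.956 to 0.989 over 77 genes of the same libraries, a description). The ranges over samples of Rps14, Rps27 and Rps19 overlapped, and those of Rps15a, Rpl24 and Rps4l did not. For 57 of the members 258 named pseudogenes were also counted. How reads that match a member and a pseudogene alike were counted is not known. Their part in the differences of level between members was not tested.

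Members varied little between samples of the same population. The median SD of the 77 abundant members within populations was 0.215 (log2), against 1.55 for all genes tested. It was 0.497 for the 2955 other genes at or above the mean of the scarcest of these members (61.1 CPM). Many of these other genes are scarcer than most members, so the sets are not matched, and the part of abundance was not tested. The steadiest were Rpl14 (SD 0.140) and Rpl12 (0.146), both proteins of the large subunit. The least steady of the abundant members were Rpl39, a short protein that lines the exit tunnel, with an SD of 0.528, and the zinc-binding small subunit proteins Rps29 (0.332) and Rps27 (0.329).

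Differences between populations were tested for all 13661 genes with edgeR's quasi-likelihood test at an adjusted p below 0.1. In 4 week MAC-1+ against MAC-1- HSCs, 7 of 78 members were lower and 0 higher, where 2.06% of all genes were lower and 1.19% higher. DESeq2 called 11 lower and 1, Rps12, higher, and limma-voom 16 lower and 0 higher. The abundant genes used for comparison were the 2955 other genes at or above 61.1 CPM, the mean of the scarcest of the 77 abundant members. Of these 8.09% were lower and 3.86% higher, so that the share of lower members was close to theirs. The 2 sets are not matched, since many of these genes are scarcer than most members. Their median SE was 0.39, against 0.18 for the members tested. The samples of both populations did not overlap for 21 members, all lower in MAC-1+, against 11.5% of all genes lower and 10.2% higher without overlap, and against 23.2% of the abundant genes lower. The median log2 fold change of the members was -0.24 (64 of 78 below 0), beside 0.07 for all genes and -0.16 for the abundant genes. With an offset for transcript GC content and length the members' median became -0.02 with 41 of 78 below 0, and 0 of the 78 passed the threshold, 8 reaching an unadjusted p below 0.05 against 24 without the offset. The same offset reduced the lower genes of the whole table from 282 to 155 and the higher ones from 162 to 108.

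In 4 week MAC-1low against MAC-1- HSCs all 78 members tested had a log2 fold change below 0, with a median of -0.28 beside 0.05 for all genes and -0.05 for the abundant genes. With DESeq2 76 of 78 lay below 0, with the GC and length offset 77, and with total counts in place of TMM factors 69. Without replicate 2 of 4 week MAC-1- 65 of 78 lay below 0, and the median was -0.17. The values of the members rest on the same libraries and are not independent. By library the populations overlapped, as the median deviation of MAC-1low replicate 2 (-0.04) was above that of MAC-1- replicate 1 (-0.07). At an unadjusted p below 0.05, 25 members were lower and 0 higher (32.1% of the members against 7.25% of all genes and 14.3% of the abundant genes). With the GC and length offset 19 members reached an unadjusted p below 0.05, while the median of all genes became -0.08 and that of the members -0.32. None of the 78 passed the adjusted threshold with edgeR (0.117% of all genes lower, 0.161% higher), while 3 passed with DESeq2 and 10 with limma-voom, all lower. Samples did not overlap for 14 members, all lower, against 5.53% of all genes lower and 5.23% higher and 11.1% of the abundant genes lower. This comparison shares its 4 week MAC-1- samples with the one before, so both values of a member rest in part on the same libraries.

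**Figure D2:**
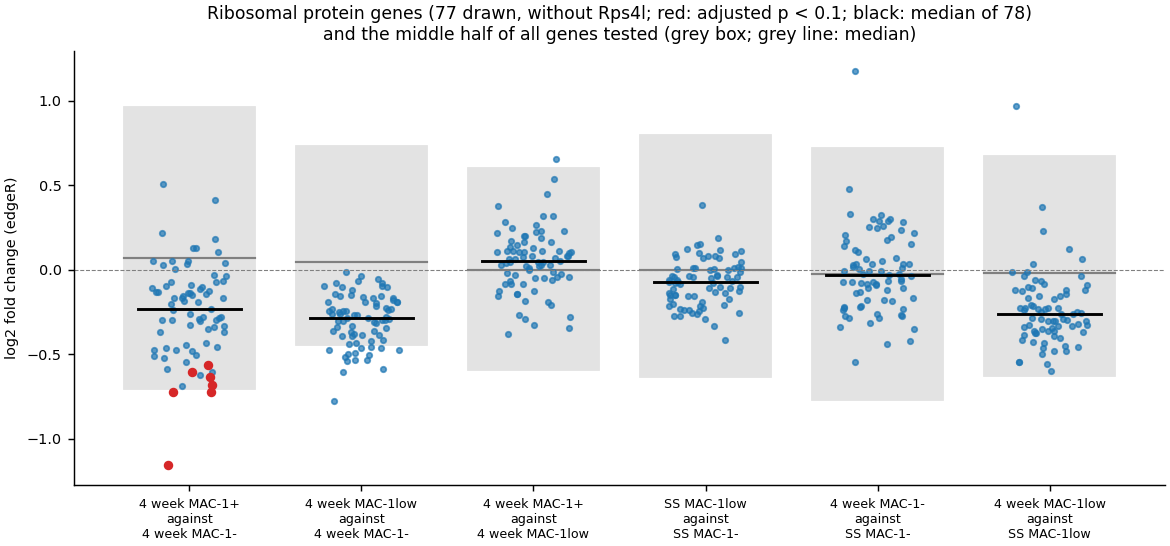
Log2 fold changes (TMM scale) of 77 members in each of the 6 comparisons; dots are genes, red marks an adjusted p below 0.1, the black line is the median of the members and the grey box and line are the quartile range and median of all 13661 genes. The members form a narrow band below 0 in 4 week MAC-1low against MAC-1- (median -0.28) and against SS MAC-1low (median -0.26); Rps4l is not drawn.

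Without the GC and length offset the members differed less in the other comparisons, with 1 exception. In 4 week MAC-1+ against MAC-1low the median was 0.05 (all genes 0.00), 0 members passed (0% of all genes in either direction), 3 reached an unadjusted p below 0.05, and DESeq2 and limma-voom called 1 and 0. Samples did not overlap for 4 members higher and 2 lower (3.75% and 4.48% of all genes). In SS MAC-1low against SS MAC-1- the median was -0.07 (all genes 0.00), 0 members passed (0.00732% of all genes in each direction), 1 reached an unadjusted p below 0.05 and both other tools called 0. Non-overlap held for 1 member higher and 6 lower (5.95% and 5.38% of all genes). With the offset 17 members reached an unadjusted p below 0.05 in 4 week MAC-1+ against MAC-1low, where 8 members lay below 0. At SS 12 members reached it with the offset, and 76 lay below 0. The medians of all genes also moved with the offset, to 0.14 and -0.20.

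In 4 week MAC-1- against SS MAC-1- HSCs the members' median was -0.03, as that of all genes, and 0 passed (0.212% of all genes higher, 0.22% lower), with 6 at an unadjusted p below 0.05, 1 call by DESeq2 and 0 by limma-voom. Samples did not overlap for 4 members higher and 5 lower (9.24% and 7.4% of all genes). With the GC and length offset 31 members reached an unadjusted p below 0.05 and 72 lay below 0, while the median of all genes became -0.33. The exception was 4 week MAC-1low against SS MAC-1low, with a median of -0.26 beside -0.02 for all genes and 0.11 for the abundant genes. There 71 of 78 members lay below 0, and 25 were lower and 1 higher at an unadjusted p below 0.05 (33.3% of the members, against 8.89% of all genes and 17.8% of the abundant genes). With edgeR 0 passed the adjusted threshold (0.0146% of all genes lower, 0.0293% higher), with limma-voom 0 and with DESeq2 6, all lower. Non-overlap held for 19 members lower and 2 higher, against 4.98% of all genes lower and 5.44% higher. With the offset 35 members reached an unadjusted p below 0.05 and 74 lay below 0, while the median of all genes became -0.23.

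An interaction term tested if the MAC-1low to MAC-1- difference at SS was unlike that after transplantation. It passed for 0 members with edgeR (0.0512% of all genes above 0, 0.00732% below), as with DESeq2 and limma-voom, and 3 reached an unadjusted p below 0.05. The median interaction was -0.21 with 70 of 78 members below 0, beside 0.03 for all genes. Across all 5 populations at once 4 of 78 members differed, against 2.22% of all genes, and these were Rps27l (adjusted p = 0.020, edgeR), Rps15 (0.047), Rpl14 (0.070) and Rpl21 (0.072).

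Fold changes rest on the scaling. Relative to the median of all genes under the same setting, the members' median in 4 week MAC-1low against MAC-1- lay between -0.34 and -0.22 over the settings that keep all samples, with -0.46 and -0.41 on leaving out replicate 1 or 3 of 4 week MAC-1-, and in 4 week MAC-1low against SS MAC-1low between -0.36 and -0.16 over all settings. In 4 week MAC-1+ against MAC-1- it ran from -0.32 to -0.05 over the settings that keep all samples, and was -0.38 and -0.37 on leaving out replicate 1 or 3 of 4 week MAC-1-. With the GC and length offset it was -0.09, and -0.05 when the replicate number was added to the offset. Across the 77 abundant members the GC content of the transcript correlated with the log2 fold change at r = -0.05, -0.04 and -0.04 in the 3 comparisons within 4 weeks, and at -0.43 in 4 week MAC-1low against SS MAC-1low. These values are descriptions over genes of the same libraries, and the part of base composition was not tested.

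Rps27l showed the clearest difference of any member. It encodes the paralog of Rps27, a zinc-binding protein of the small subunit, and is known as a gene induced by p53. Rps27l stood at 2357, 2369 and 1635 CPM in the 4 week MAC-1- samples, at 1449.6, 1192, 1077 and 1222 CPM in the 4 week MAC-1low samples and at 1058, 956 and 837 CPM in the 4 week MAC-1+ samples. Every MAC-1- sample was above every MAC-1low sample, and every MAC-1low sample above every MAC-1+ sample. The fit gave a log2 fold change of -1.16 (SE 0.18, edgeR adjusted p = 0.0040) for MAC-1+ against MAC-1- and of -0.78 (SE 0.17, adjusted p = 0.101) for MAC-1low against MAC-1-, the latter just outside the threshold. The latter passed in 8 of 28 alternatives, among them DESeq2 (adjusted p = 0.0046) and limma-voom (0.0088). With the GC and length offset the difference between MAC-1+ and MAC-1- became -0.78 (adjusted p = 0.12).

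At SS Rps27l stood at 1554, 1544 and 1975 CPM in MAC-1- samples and at 1437, 1011 and 1357 CPM in MAC-1low samples. Here too all MAC-1- samples were higher, but the log2 fold change of -0.42 (SE 0.18) did not pass the threshold (edgeR adjusted p = 0.52). Rps27 itself did not fall with it. Rps27 stood at 1278, 1769 and 1152 CPM in 4 week MAC-1- samples, at 1576, 1532, 1138 and 1205 CPM in MAC-1low samples and at 1720.4, 2531 and 1329 CPM in MAC-1+ samples, which overlapped. Its log2 fold change was 0.41 (SE 0.25, adjusted p = 0.52) for 4 week MAC-1+ against MAC-1-.

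Taken within a sample, which leaves out the scaling between libraries, the counts of Rps27l per count of Rps27 were 1.84, 1.34 and 1.42 in 4 week MAC-1- samples, 0.920, 0.778, 0.946 and 1.01 in MAC-1low samples and 0.615, 0.378 and 0.63 in MAC-1+ samples. The 3 populations did not overlap and followed the order of MAC-1, with means of 1.53 ± 0.272 (SD, n = 3), 0.915 ± 0.0993 (n = 4) and 0.541 ± 0.141 (n = 3). In a 2-sided exact permutation test p was 0.1 for MAC-1+ against MAC-1- and 0.0571 for MAC-1low against MAC-1- and for MAC-1+ against MAC-1low, the smallest values that 3 against 3 and 3 against 4 samples can give, and the smallest adjusted p over the 24 ratio tests was 0.24. At SS the ratios were 0.699, 0.884 and 0.912 in MAC-1- and 0.631, 0.722 and 0.928 in MAC-1low samples, which overlapped (log2 difference -0.14, exact permutation p = 0.7). The 4 week MAC-1- samples also lay above the SS MAC-1- samples (log2 difference 0.88, exact permutation p = 0.1).

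**Figure D3:**
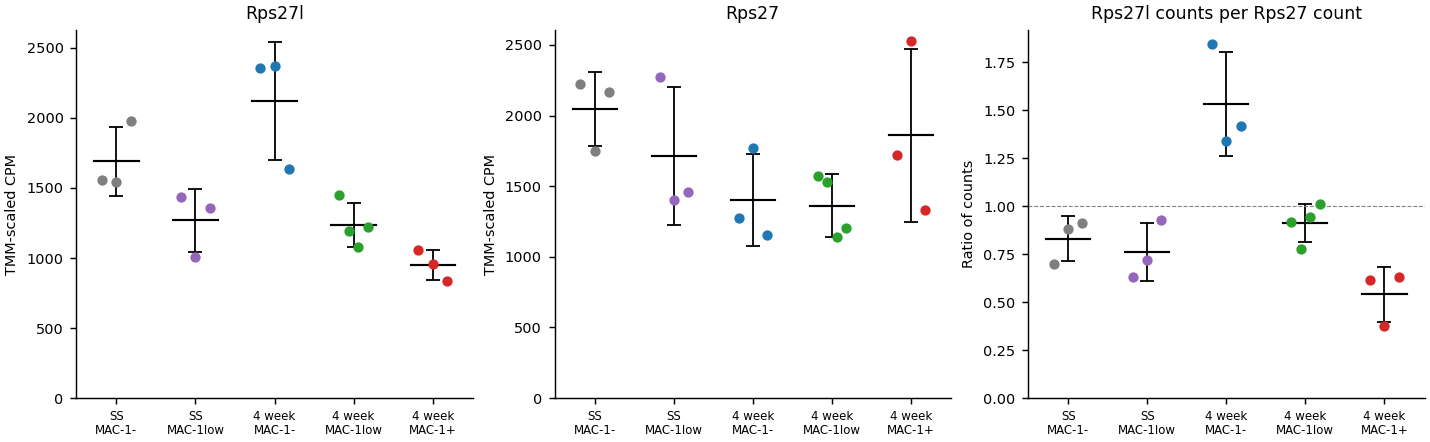
Rps27l and Rps27 in TMM-scaled CPM and the ratio of their counts in each sample (dots), with mean and SD per population. Rps27l per Rps27 falls from 1.34 to 1.84 in 4 week MAC-1- through 0.778 to 1.01 in MAC-1low to 0.378 to 0.63 in MAC-1+ samples.

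The other members past the threshold in 4 week MAC-1+ against MAC-1- HSCs had smaller differences, and 5 of them are described here. Rps15, which is needed for export and maturation of the small subunit, stood at 782, 1121 and 970.1 CPM in MAC-1-, 557, 759, 702 and 661 CPM in MAC-1low and 483, 677 and 578 CPM in MAC-1+ samples. Both MAC-1low and MAC-1+ samples lay below all MAC-1- samples and overlapped with each other. The log2 fold change of MAC-1+ against MAC-1- was -0.72 (SE 0.16, edgeR adjusted p = 0.033). Rps16, a small subunit protein near the decoding site, stood at 982, 1109 and 977 CPM in MAC-1-, 639, 836, 657 and 679 CPM in MAC-1low and 599.6, 781 and 528 CPM in MAC-1+ samples. It followed the same order, with a log2 fold change of -0.68 (SE 0.16, adjusted p = 0.035) for MAC-1+ against MAC-1-.

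Rpl29, a large subunit protein also known as a heparin-binding protein, stood at 309, 336 and 323 CPM in 4 week MAC-1-, 199.6, 269.9, 256 and 257 CPM in MAC-1low and 206, 209 and 171 CPM in MAC-1+ samples. All MAC-1- samples were higher than the rest of the 4 week samples, and MAC-1+ differed from MAC-1- by -0.73 (log2, SE 0.18, edgeR adjusted p = 0.051). Rpl38, which is known for its part in the translation of Hox messenger RNAs, stood at 692, 882 and 582 CPM in MAC-1-, 462, 556, 420.2 and 449 CPM in MAC-1low and 396, 545 and 446 CPM in MAC-1+ samples. Here too all MAC-1- samples were the highest, and MAC-1+ and MAC-1low overlapped, at -0.64 (SE 0.17, adjusted p = 0.086) for MAC-1+ against MAC-1-.

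Rpl19 stood at 571, 845 and 812 CPM in 4 week MAC-1-, 541, 588, 625 and 601 CPM in MAC-1low and 490.4, 478 and 496 CPM in MAC-1+ samples. MAC-1+ samples lay close together and below all samples of both other 4 week populations, and the difference from MAC-1- was -0.61 (SE 0.17, edgeR adjusted p = 0.094). Rpl15, at -0.69 (SE 0.20), missed the threshold with an adjusted p of 0.10. Its exons overlap those of Nkiras1 on the opposite strand, whose counts come to 3.92% of its own, and without strand the reads of both cannot be told apart. The number of lower members rested on single libraries. It dropped to 1 when replicate 2 of 4 week MAC-1- or replicate 3 of 4 week MAC-1+ was left out, and to 3 when replicate 3 of 4 week MAC-1- was. It was 4 when replicate 1, 2 or 3 of SS MAC-1-, replicate 2 or 3 of SS MAC-1low, or replicate 3 or 4 of 4 week MAC-1low was left out.

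Rpl14 and Rpl21, both of the large subunit, passed only the test over all 5 populations. Rpl14 stood at 953, 1075 and 1156 CPM in SS MAC-1-, 1043, 1022 and 967 CPM in SS MAC-1low, 723, 961 and 871 CPM in 4 week MAC-1-, 721, 799, 729 and 807 CPM in 4 week MAC-1low and 596, 757 and 663 CPM in 4 week MAC-1+ samples. The 4 week MAC-1low and MAC-1+ samples lay below all SS samples. Rpl21 stood at 1259, 1285 and 1499.6 CPM in SS MAC-1-, 1452, 1299.9 and 1079 CPM in SS MAC-1low, 1003, 1469 and 1208 CPM in 4 week MAC-1-, 776, 998, 843 and 856 CPM in 4 week MAC-1low and 861, 961 and 823 CPM in 4 week MAC-1+ samples. As for Rpl14, all samples of 4 week MAC-1low and MAC-1+ were below all SS samples. The 4 calls over all populations became 1 when replicate 3 of either 4 week MAC-1- or 4 week MAC-1+ was left out, and 7 when replicate 2 of 4 week MAC-1+ was. They became 2 on leaving out replicate 2 or 3 of SS MAC-1-, 1 or 2 of SS MAC-1low, 3 or 4 of 4 week MAC-1low, or 1 of 4 week MAC-1+.

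**Figure D4:**
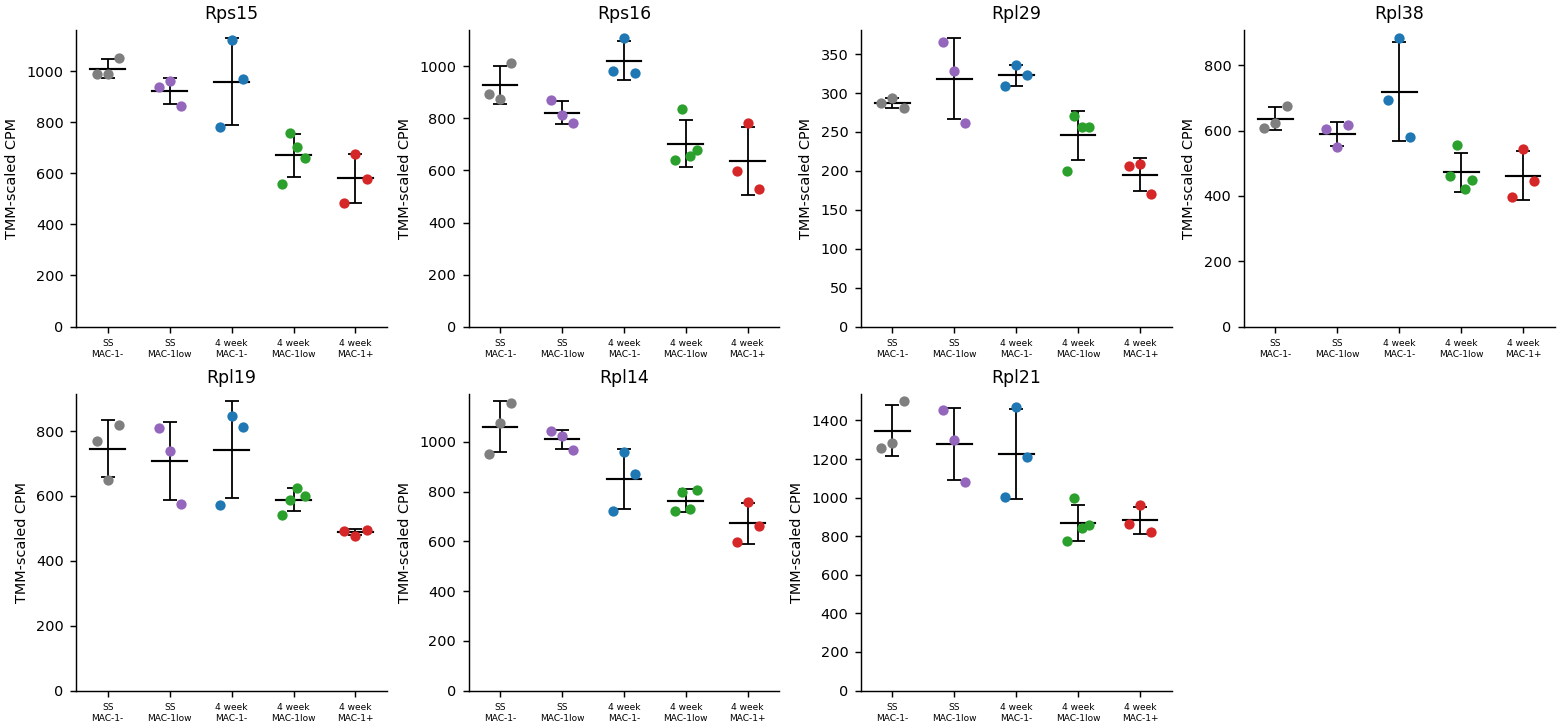
TMM-scaled CPM of Rps15, Rps16, Rpl29, Rpl38, Rpl19, Rpl14 and Rpl21 in all 16 samples (dots) with mean and SD per population. In each panel the 4 week MAC-1+ samples lie below all 4 week MAC-1- samples, except in Rpl14, where 757 CPM is above 723 CPM.

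On the higher side in 4 week MAC-1+ HSCs stood Rps12, a small subunit protein, at 568, 714 and 598 CPM, against 471, 387, 363 and 367 CPM in 4 week MAC-1low and 399.6, 579 and 341 CPM in 4 week MAC-1- samples. All MAC-1+ samples were above all MAC-1low samples, but 1 MAC-1- sample reached into their range. The log2 fold changes were 0.66 (SE 0.19, edgeR adjusted p = 0.54) against MAC-1low and 0.51 (SE 0.21, adjusted p = 0.29) against MAC-1-, and both passed with DESeq2, at adjusted p of 0.051 and 0.084. Next against MAC-1low came Rps21 at 0.54 (SE 0.20, adjusted p = 0.66) and Rps27 at 0.45 (SE 0.23, adjusted p = 0.74), and against MAC-1- Rpl24 at 0.22 (SE 0.33, adjusted p = 0.89). On the lower side against MAC-1low the abundant members with the largest values were Rps27l at -0.38 (SE 0.17, adjusted p = 0.72) and Rpl15 at -0.34 (SE 0.19, adjusted p = 0.76), and neither passed. In 4 week MAC-1low against MAC-1-, Rpl38 followed Rps27l among the abundant members at -0.61 (SE 0.16, adjusted p = 0.27), and passed with DESeq2 (0.046) and limma-voom (0.039). The scarce Rps4l stood at -1.27 (SE 1.43) against MAC-1low and at -1.12 (SE 1.37) for MAC-1low against MAC-1-, both with an adjusted p of 1.

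At SS the largest positive value was that of Rpsa, the ribosomal protein that also serves as a laminin receptor. It stood at 1377, 1094 and 1202 CPM in SS MAC-1low samples and at 858, 914 and 1049.6 CPM in SS MAC-1- samples, which did not overlap. The log2 fold change was 0.38 (SE 0.19, edgeR adjusted p = 0.55). After transplantation Rpsa stood at 783, 979, 907 and 795 CPM in MAC-1low samples, below all SS MAC-1low samples (-0.50, adjusted p = 0.46), at 893, 1082 and 1089 CPM in MAC-1- and at 659, 1196 and 1001 CPM in MAC-1+ samples. Its interaction was -0.62 (SE 0.26, adjusted p = 0.50), and so the MAC-1low difference at SS was not shown to differ from that at 4 weeks. Rps2 at 0.19 (SE 0.22) and Rpl29 at 0.15 (SE 0.18) came next on the positive side at SS, each with an adjusted p of 0.90, and Rpl27a at -0.33 (SE 0.23, adjusted p = 0.71) followed Rps27l on the negative side, apart from Rps4l.

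Between 4 week and SS HSCs the abundant member with the largest positive value was Rpl39, while the scarce Rps4l stood at 0.54 (SE 1.48, edgeR adjusted p = 0.97) in MAC-1- and at 2.65 (SE 1.53, adjusted p = 0.65, without overlap of samples) in MAC-1low HSCs. Rpl39 stood at 546, 500.1 and 798 CPM in SS MAC-1-, 809.7, 471 and 519 CPM in SS MAC-1low, 1718, 1496 and 956 CPM in 4 week MAC-1-, 2043, 719, 789 and 1146 CPM in 4 week MAC-1low and 1815, 993 and 847 CPM in 4 week MAC-1+ samples. Samples of a 4 week population differed among themselves by up to the size of the difference from SS, with replicate 1 the highest in each. Only in MAC-1- HSCs did 4 week and SS samples not overlap. The log2 fold changes of 1.18 (SE 0.39, edgeR adjusted p = 0.36) in MAC-1- and 0.97 (SE 0.37, adjusted p = 0.50) in MAC-1low did not pass, while DESeq2 gave the former an adjusted p of 0.052. Of the abundant members Rps29 followed in MAC-1- at 0.48 (SE 0.25, adjusted p = 0.51) and Rpl30 in MAC-1low at 0.37 (SE 0.20, adjusted p = 0.61).

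On the negative side in MAC-1- HSCs stood Rps27 at -0.55 (SE 0.25, edgeR adjusted p = 0.46), Rpl13 at -0.44 (SE 0.16, adjusted p = 0.39) and Rps19 at -0.42 (SE 0.17, adjusted p = 0.41). Rps19 stood at 3788, 3877 and 3845 CPM in SS MAC-1- samples and at 2389, 3309.6 and 2875 CPM in 4 week MAC-1- samples, which did not overlap. In MAC-1low HSCs Rpl7a at -0.60 (SE 0.18, adjusted p = 0.39), Rpl21 at -0.56 (SE 0.15, adjusted p = 0.32) and Rpl13 at -0.55 (SE 0.15, adjusted p = 0.34) had the largest negative values of the members with edgeR, and all 3 passed with DESeq2. Rpl13 stood at 1955, 1572 and 1396 CPM in SS MAC-1low and at 1035, 1217, 1033 and 1206 CPM in 4 week MAC-1low samples, without overlap.

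**Figure D5:**
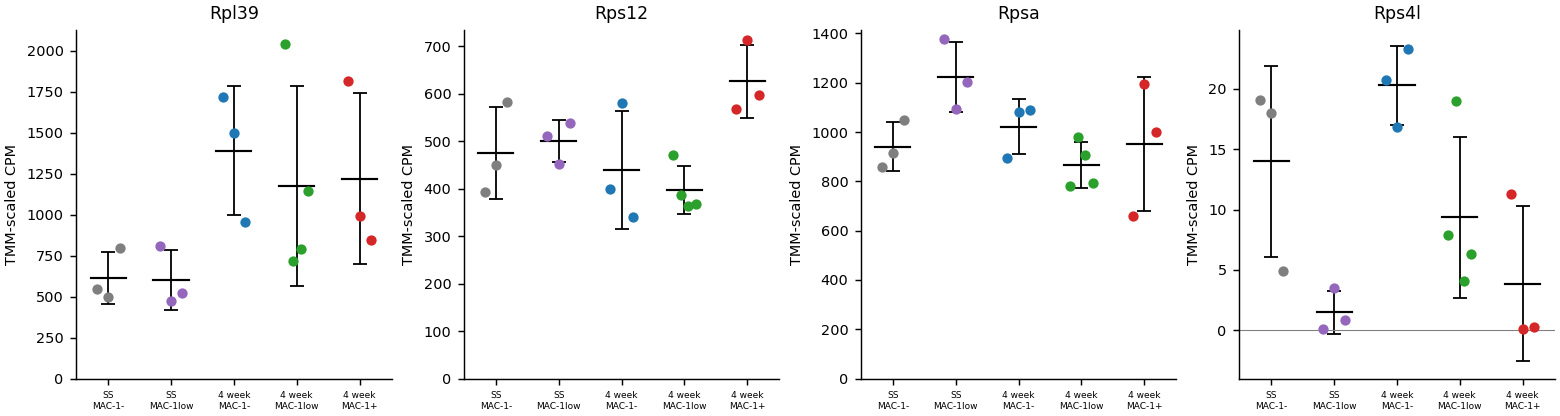
TMM-scaled CPM of Rpl39, Rps12, Rpsa and Rps4l in all 16 samples (dots) with mean and SD per population. Rpl39 spreads from 719 to 2043 CPM within 4 week MAC-1low, and Rps4l reaches 23.3 CPM in 4 week MAC-1- but stays at 0.104 to 3.52 CPM in SS MAC-1low samples.

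Members chosen by role showed small differences in 4 week MAC-1+ against MAC-1- HSCs, and apart from Rpl38 none passed the threshold. Rps6, the substrate of S6 kinase, stood at 499.8, 579 and 522 CPM in MAC-1- and at 425, 467 and 419 CPM in MAC-1+ samples, which did not overlap (-0.29, SE 0.18). The disease genes Rps14 and Rps19 stood at -0.28 (SE 0.16) and -0.07. Rpl5 and Rpl11, which bind Mdm2 together with the 5S RNA when ribosome assembly fails, stood at -0.15 (SE 0.18) and -0.30 (SE 0.22), and Rpl11 ranged from 352 to 667 CPM within 4 week MAC-1- alone. Counts of Rpl5 share exonic sequence with Fam69a on the opposite strand, whose counts come to 9.58% of its own. Rpl22, known for its role in lymphocyte development, stood at -0.23 (SE 0.21) and Rpl10a at -0.07 (SE 0.20).

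The stalk, which recruits elongation factors, is built from Rplp0 with Rplp1 and Rplp2. In 4 week MAC-1+ against MAC-1- these stood at -0.20, 0.18 and -0.14. In 4 week MAC-1low against SS MAC-1low Rplp0 stood at -0.34 and Rplp2 at -0.43, the latter without overlap of samples. Rps27a, made as a fusion with ubiquitin, stood at -0.24 (SE 0.22), and Rpl41, the shortest ribosomal protein, at -0.51 (SE 0.18, edgeR adjusted p = 0.23) in 4 week MAC-1+ against MAC-1-. By subunit the median in that comparison was -0.22 for the large subunit (39 of 46 below 0, 3 past the threshold) and -0.24 for the small subunit (24 of 31 below 0, 4 past the threshold). In 4 week MAC-1low against MAC-1- the subunits stood at -0.30 and -0.26.

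The remaining paralogs were scarce. Rps4l, annotated at chr6:148354656-148355598 as a transcribed processed pseudogene of GENCODE M21, stood at 19.1, 18 and 4.87 CPM in SS MAC-1-, 0.104, 3.52 and 0.825 CPM in SS MAC-1low, 20.7, 16.8 and 23.3 CPM in 4 week MAC-1-, 7.91, 19, 4.11 and 6.33 CPM in 4 week MAC-1low and 11.3, 0.063 and 0.237 CPM in 4 week MAC-1+ samples. At SS and for 4 week MAC-1+ against MAC-1- the MAC-1- samples were all higher, with log2 fold changes of -3.23 (SE 1.61, edgeR adjusted p = 0.55) and -2.39 (SE 1.56, adjusted p = 0.57) that did not pass. The latter grew to -6.99 (edgeR adjusted p = 0.075) on leaving out replicate 1 of 4 week MAC-1+, the highest sample of its population, and limma-voom gave -5.16 (adjusted p = 0.057). Rps4l held 1 exon and a mean of 186 counts, and its sequence is close to that of Rps4x, which stood at 0.03 (SE 0.16) in 4 week MAC-1+ against MAC-1-. Rpl3 and Rpl10 stood at 0.05 and -0.26 (SE 0.17) there.

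The 3 members not tested were paralogs known from muscle or testis. Rpl10l held 2 counts in 1 SS MAC-1- sample and 0 elsewhere, and Rpl3l 75 counts in SS MAC-1- replicate 2 and 0 to 5 elsewhere. Rpl39l held 234 counts in 4 week MAC-1- replicate 2 and 183 counts in 4 week MAC-1low replicate 3, with 0 to 1 counts in the other 14 samples. It was thus detected at a level well above 1 read in only 2 of 16 samples, of different populations. Counting error alone puts the limit of detection, 3 counts, at 0.112 to 0.220 CPM.

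Of the cytosolic ribosome genes that the naming rule leaves out, 6 were tested and 1 passed in 4 week MAC-1+ against MAC-1-. This was Rpl36al, the paralog of Rpl36a, at -0.85 (SE 0.20, edgeR adjusted p = 0.043). Counts of Rpl36al per count of Rpl36a were 0.631, 0.566 and 0.833 in 4 week MAC-1-, 0.395, 0.703, 0.706 and 0.656 in MAC-1low and 0.333, 0.397 and 0.443 in MAC-1+ samples. MAC-1+ lay below all MAC-1- samples (log2 difference -0.78, exact permutation p = 0.1). Rpl22l1, the paralog of Rpl22, was counted 2.7, 2.78 and 3.77 times as often as Rpl22 in SS MAC-1- and 2.1, 1.37 and 2.21 times in SS MAC-1low samples, without overlap (-0.72, exact permutation p = 0.1). After transplantation MAC-1low samples stood at 3.81, 2.6, 3.53 and 5.89, all above SS MAC-1low (1.03, exact permutation p = 0.0571).

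Single genes of other lists of protein synthesis were lower in 4 week MAC-1+ against MAC-1- HSCs, where 2.06% of all genes and 8.09% of the abundant genes were lower. The megakaryocyte and erythroid marker sum was also lower there and the HSC marker sum higher, and the part of these cells was not tested. Of 76 mitochondrial ribosomal proteins 9 were lower and 0 higher, with a median log2 fold change of -0.69, led by Mrps28 at -1.53 (edgeR adjusted p = 0.0020), Mrps14 at -0.94 (0.012) and Mrpl42 at -0.97 (0.015). Of 34 ribosome biogenesis genes 5 were lower and 0 higher, with a median of -0.73, led by Nop10 at -1.20 (adjusted p = 0.0038) and Nhp2 at -1.61 (0.0088), both parts of the H/ACA particles that guide pseudouridylation, and by Nop56 at -2.61 (0.055), a core protein of the C/D particles. Of 32 translation factors 3 were lower and 0 higher, with a median of -0.29, and these were Eif2s1 at -1.13 (0.012) and Eif2s2 at -1.03 (0.039), subunits of the factor that brings the initiator tRNA, and Eif5a at -1.45 (0.012). In 4 week MAC-1low against MAC-1- the medians of these lists were -0.37, -0.44 and -0.20, with 0 calls and 9, 3 and 4 genes at an unadjusted p below 0.05. In no other comparison did a gene of these lists pass with edgeR. The lists were not tested against each other or against the members.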

How the data were processed

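RNA of sorted HSCs was amplified with SMART-Seq v4, which does not mark strand, and made into Nextera XT libraries. Per the paper's methods the authors aligned reads with STAR in the nf-core RNA-seq pipeline v1.4.2, and the deposited table holds whole-number counts per gene in 16 columns, not normalized. For the counting program, the genome build and the annotation, the names were not given in the sources used here. Total counts ranged from 13781278 to 28580658 per sample, and counts of replicates differed by far more than sampling noise. Of 46078 gene IDs 45229 (98.2%) matched GENCODE M21, from which lengths, GC content and overlaps were taken. The labels list DESeq2 among the tools of the submitters.

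The counts as deposited were fitted with edgeR 4.0.16 (R 4.3.3; filterByExpr, TMM factors, robust quasi-likelihood) with a mean per population and all 16 samples in 1 fit. P-values were adjusted by Benjamini-Hochberg over 13661 genes and called below 0.1. CPM are TMM-scaled, and the SD is over samples. Ratios were tested with exact 2-sided permutation tests on log2 after adding 0.5 counts (scipy 1.17.1) and adjusted over 24 tests. Members and lists were chosen with earlier results of these data known. Members were named by role, as paralogs, as past the threshold, as the 3 of largest fold change per direction and comparison among those with a mean of at least 50 counts, as the 3 highest and lowest by level per length, or as not tested, and some genes that this rule names are not reported here. Alternatives were DESeq2 1.42.0, limma-voom 3.58.1 with sample weights, other size factors, filters and denominators, the fold threshold of the study, a GC and length offset (mgcv 1.9.3), counts of the 258 named pseudogenes added, the replicate block and each sample left out. Total counts without TMM factors were added as an alternative after seeing the data. The scripts were tested on simulated data. Intervals and detection limits cover counting error only, since reads carry no molecular identifiers.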

Additional observations from a re-analysis of the deposited data

Results flagged for a closer look

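A sample lay far from the other 3 of its population, past Dixon's 95% limit, in 4 of 46 values tested in the 4 week MAC-1low samples, the one population of 4. For values with a normal spread chance alone gives such a sample in about 1 in 20 groups. This rate does not hold for Rpl39l and Rpl3l, where 1 non-zero value beside values of 0 passes the limit at any size. Rpl41 stood at 1051 CPM in replicate 2 and at 766 to 788 CPM in the others, replicate 2 being the library with the highest share of counts on the members in this population. Rpl39l stood at 9.41 CPM in replicate 3 and at 0 in the others. Rpl3l stood at 0.046 CPM in replicate 2, which is 1 count, and at 0 in the others. Counts of Rpl36al per count of Rpl36a stood at 0.395 in replicate 1 and at 0.656 to 0.706 in the others.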

How the results depend on the processing

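Of 559 alternatives to 25 summary values 464 left the value in place and 95 moved it. A median counted as in place if it shifted by less than 0.158 (log2), even where its sign changed. With total counts the median at SS went from -0.07 to 0.07. That of 4 week MAC-1+ against MAC-1- went from -0.24 to -0.08. Both counted as in place. Counts of members were judged by their ratio to the main value, and shares by the SD of their population. The 7 members called in 4 week MAC-1+ against MAC-1- became 12 with DESeq2, 16 with limma-voom, 4 with DESeq2 size factors, with TMM factors computed without the members or with pseudogene counts added, 1 with no filter, with total counts, with only the populations compared or with an absolute log2 fold change above 1, and 0 with the GC and length offset, alone or with the replicate block. Of the 4 calls over all 5 populations there were 20 with DESeq2, 15 with the offset, 2 with the offset and replicate block and 1 with total counts. From 0 calls, 4 week MAC-1low against MAC-1- went to 3 with DESeq2, 10 with limma-voom and 1 with TMM factors without the members, no filter, a mean of at least 50 counts or total counts. DESeq2 gave 1 call in 4 week MAC-1+ against MAC-1low and in 4 week MAC-1- against SS MAC-1-, where the offset also gave 1, and 6 in 4 week MAC-1low against SS MAC-1low. The cause was not tested.

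With the GC and length offset the members' median became -0.018 (-0.028 with the replicate block) in 4 week MAC-1+ against MAC-1-, 0.30 (0.29) in 4 week MAC-1+ against MAC-1low, -0.29 (-0.29) at SS and -0.41 (-0.42) in 4 week MAC-1- against SS MAC-1-, where the medians of all genes became 0.08, 0.14, -0.20 and -0.33. Of the named members, the offset turned Rps2 (-0.20, with block -0.20) and Rpl29 (-0.23, with block -0.25) at SS and Rpl30 (-0.15, with block -0.084) in 4 week MAC-1low against SS MAC-1low, and Rpl24 in 4 week MAC-1+ against MAC-1- ran from 0.44 to -0.027 on leaving out single samples, the latter without 4 week MAC-1+ replicate 2. None of these had passed the threshold. Rps27l in 4 week MAC-1+ against MAC-1- kept its call in 26 of 28 alternatives, all but the offset and the offset with block, against 21 for Rps16, 19 for Rps15, 18 for Rpl29, 7 for Rpl38 and 4 for Rpl19.

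The share of counts in SS MAC-1- became 8.48% without mitochondrial counts and 8.28% with the genes left out by name, and without the 100 most abundant other genes the shares were 10.5%, 10.5%, 9.89%, 8.63% and 9.10% in the order SS MAC-1-, SS MAC-1low, 4 week MAC-1-, MAC-1low and MAC-1+. Members without overlap became 10 in 4 week MAC-1+ against MAC-1-, 5 in 4 week MAC-1low against MAC-1- and 38 in 4 week MAC-1low against SS MAC-1low with total counts. In 4 week MAC-1- against SS MAC-1- they became 14 with DESeq2 size factors and 15 with TMM factors without the members or with pseudogene counts.

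Leaving out 1 sample gave 1 to 6 calls in 4 week MAC-1+ against MAC-1-, 0 to 1 in 4 week MAC-1low against MAC-1- (1 without SS MAC-1- replicate 3 or 4 week MAC-1- replicate 3) and 1 to 7 over all 5 populations. The medians ranged from -0.31 to -0.11, -0.37 to -0.17, -0.05 to 0.11, -0.16 to -0.01, -0.15 to 0.06 and -0.36 to -0.20 in the 4 week MAC-1+ against MAC-1-, MAC-1low against MAC-1-, MAC-1+ against MAC-1low, SS, 4 week against SS MAC-1- and 4 week against SS MAC-1low comparisons. Members without overlap, which a smaller group favours by construction, ranged in the same order over 20 to 41 (41 without 4 week MAC-1+ replicate 2), 11 to 34 (34 without 4 week MAC-1low replicate 2), 6 to 15 (15 without 4 week MAC-1+ replicate 1), 7 to 28 (28 without SS MAC-1low replicate 1), 9 to 37 (37 without 4 week MAC-1- replicate 2) and 20 to 47 (47 without 4 week MAC-1low replicate 2).

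Whether samples of different populations were paired was not settled. Same-numbered samples of different populations deviated together at r of -0.03 to 0.04 with 0 of 30 pairs above 0.1. This was taken over all 13661 genes, whose median SD within populations was 1.55 (log2), so a shared effect could be hidden. The headers of the count columns carry running numbers, which follow the replicate numbers at SS and for replicate 1 at 4 weeks. Replicates 2 and 3 of 4 week MAC-1- instead stand beside replicates 3 and 4 of 4 week MAC-1low. Pairing by running number was not examined. Replicate 1 held the highest mitochondrial share of each 4 week population, at 9.62% (MAC-1+), 9.55% (MAC-1low) and 9.15% (MAC-1-). Whether these libraries share an effect was not tested. The replicate block joins samples by the replicate number of their titles, across SS and 4 week populations, and may not follow any real pairing. It gave 5 calls in 4 week MAC-1+ against MAC-1-, 4 over all 5 populations and 0 elsewhere, with medians of -0.25, -0.30, 0.04, -0.08, -0.04 and -0.25. Depth did not limit the 77 abundant members, while Rps4l and the 3 untested paralogs lay near the detection limit in several samples.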
